A study of Mus musculus with 622 samples.

Results

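Among single cells of mouse pancreatic islets, 8 held the RNA of glucagon and of pancreatic polypeptide side by side, and their RNA was set against that of cells with glucagon RNA alone and of cells with pancreatic polypeptide RNA alone. All cells came from wild type C57BL/6 mice, the source being isolated islets with no treatment given in the labels, and each cell gave its own library on a C1 microfluidic chip. Of 622 cells, 593 had at least 1000 genes at 1 RPKM (reads per kilobase of gene length, set relative to all mapped reads in that cell) and entered the selection. For each of them the RPKM of insulin (Ins1 plus Ins2), Gcg, Sst and Ppy were summed. A cell was called dual when Gcg and Ppy were the top hormones and the smaller of them made up at least 10% of that sum, which 8 cells met, a share of 1.35% of the 593 (95% exact Clopper-Pearson interval 0.584 to 2.64). The single-hormone cells were 33 Gcg-only cells, with Gcg at 90% or more of the sum (5.56%, 3.86 to 7.73), and 11 Ppy-only cells, with Ppy at 90% or more (1.85%, 0.93 to 3.29). These intervals cover counting error only.

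The labels name no mouse, chip or day, so all cells count as 1 sample. The values below therefore describe these cells, with no replicate error and no test of a difference between groups. The cells were chosen by the hormone RNA levels themselves, so these are a description and support nothing. Recovered reads per cell had medians of 1067208 in dual cells, 1199029 in Gcg-only cells and 1499228 in Ppy-only cells. Mitochondrial genes held a median of 14.5% of RPKM in dual, 15.5% in Gcg-only and 11.7% in Ppy-only cells, with highs of 41.1% (cell 578), 41.6% and 56.4%. The table holds 359 columns at full precision and 263 rounded to 4 decimals, a split the labels do not explain; 3 dual, 17 Gcg-only and 6 Ppy-only cells were in the full-precision columns, and 5, 16 and 5 in the rounded ones.

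In the islet, glucagon is the hormone of alpha cells and raises blood glucose, and pancreatic polypeptide is the hormone of PP cells, which are more frequent in the part of the pancreas near the duodenum. Each hormone is cut from a larger precursor and stored in dense granules, and alpha and PP cells share much of the machinery for this. Irx1 and Irx2 are transcription factors known from alpha cells in mice, while many proposed PP cell markers come from human islets. Peptide YY, the product of Pyy, is a relative of pancreatic polypeptide made by several islet cell types.

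The promoters of the hormone genes that define the cells are shown, with that of Pyy, the related gene measured in all 3 groups. Sequences are from RefSeq on GRCm38.p6 and run from 250 bases before to 50 after the start of the gene, on the minus strand. Gcg lies at chr2:62474530-62483653 (window chr2:62483604-62483903), Ppy at chr11:102099931-102101319 (window chr11:102101270-102101569) and Pyy, on the same chromosome and strand, at chr11:102106676-102107832 (window chr11:102107783-102108082). Capitals mark TATAAA, the TATA box, searched on both strands.
Gcg: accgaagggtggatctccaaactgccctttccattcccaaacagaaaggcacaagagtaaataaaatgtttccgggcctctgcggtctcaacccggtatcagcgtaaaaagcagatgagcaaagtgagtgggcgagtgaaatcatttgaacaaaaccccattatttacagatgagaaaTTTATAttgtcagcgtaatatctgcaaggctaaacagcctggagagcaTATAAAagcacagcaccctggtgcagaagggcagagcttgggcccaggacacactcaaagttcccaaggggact
Ppy: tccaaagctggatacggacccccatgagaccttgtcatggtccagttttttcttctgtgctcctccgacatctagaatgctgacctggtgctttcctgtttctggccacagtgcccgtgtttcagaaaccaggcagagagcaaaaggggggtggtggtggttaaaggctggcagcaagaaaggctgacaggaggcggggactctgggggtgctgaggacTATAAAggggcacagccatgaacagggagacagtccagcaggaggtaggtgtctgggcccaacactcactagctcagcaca
Pyy: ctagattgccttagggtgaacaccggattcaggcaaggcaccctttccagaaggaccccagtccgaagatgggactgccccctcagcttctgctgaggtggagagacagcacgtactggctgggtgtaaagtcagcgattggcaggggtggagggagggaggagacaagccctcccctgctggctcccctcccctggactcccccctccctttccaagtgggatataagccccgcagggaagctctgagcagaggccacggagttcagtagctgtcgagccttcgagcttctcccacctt
The Gcg window held TATAAA at 2 places, 1 of them on the reverse strand, and the Ppy window at 1 place. The Pyy window held no exact match, and other forms of a TATA box were not searched. Over 32851 promoter windows of the same length, 13.6% held TATAAA. Another motif, TAATTA, a core bound by many homeodomain factors and searched on both strands, was in none of the 3 windows and in 5.29% of all windows. No printed match overlaps another, and a match is a description of the letters only.

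The dual cells did not form an even group. Gcg made up 29.1% to 81.3% of the summed hormone RNA (median 43.1%) and Ppy 12.4% to 68.3% (median 37.6%). Insulin RNA was also at 10% or more of the sum in 4 of the 8 cells: 30.3% in cell 47, 22.4% in cell 604, 18.1% in cell 331 and 10.1% in cell 587. It was at 2.49% in cell 578, 0.471% in cell 500, 0.355% in cell 606 and 0.12% in cell 259. Cell 587 also held Sst at 11.4% of the sum, so 1 dual cell carried all 4 hormones at 10% or more. The dual cells nearest to the threshold were cell 587, with Ppy at 12.4%, and cell 606, with Ppy at 18.2%. Just outside it were 2 Gcg-only cells, with Ppy at 6.78% and 6.59%. The Gcg-only cell nearest to its own threshold had Gcg at 92.4%, and the nearest cell outside had 86.8%. For Ppy-only cells these values were 94.3% and 79.9%.

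**Figure D1:**
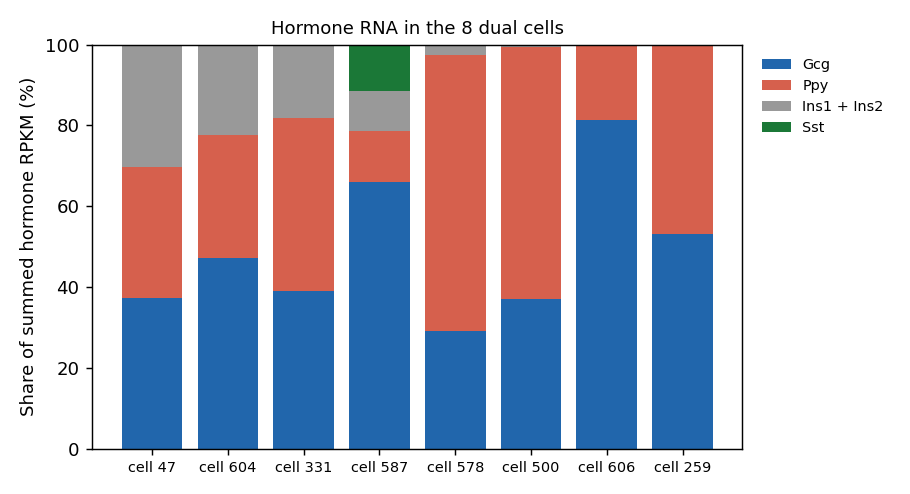
Share of the summed RPKM of insulin (Ins1 plus Ins2), Gcg, Sst and Ppy held by each hormone, in percent, in each of the 8 dual cells, ordered by insulin share and shown as stacked bars. The 4 cells on the left hold insulin at 10.1% to 30.3%, and the 4 on the right at 2.49% or less.

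In absolute levels, Gcg ran from 26828 to 281786 RPKM (median 120364) in dual cells, from 54509 to 437981 (median 283909) in Gcg-only cells and from 0.397 to 2943 (median 80.8) in Ppy-only cells. Ppy ran from 38632 to 229581 RPKM (median 81235) in dual cells, from 4.01 to 15782 (median 241) in Gcg-only cells and from 16991 to 1051195 (median 358342) in Ppy-only cells. The lowest Ppy level of a dual cell, 38632 RPKM, was above the highest Gcg-only level, as the rule favours. Some RNA of the other hormone was present in single-hormone cells as well. Ppy reached 1% of the hormone sum in 5 of 33 Gcg-only cells (median 0.0974%), and Gcg reached 1% in 1 of 11 Ppy-only cells (median 0.0628%).

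Markers of other cell types were counted in every cell, since a library that also took in a cell of such a type could hold them. A library made from an alpha cell and a PP cell need not hold any of them, so these counts cannot show that case. Of 14 beta cell markers, dual cells had 4 to 10 at 1 RPKM or more, Gcg-only cells 2 to 8 and Ppy-only cells 1 to 7. Their summed level ran from 617 to 24737 RPKM in dual cells, from 301 to 8987 in Gcg-only cells and from 33.8 to 3002 in Ppy-only cells. Within the dual cells the sum ran from 2473 to 24737 RPKM in the 4 cells with insulin at 10% or more and from 617 to 4648 in the other 4. Slc30a8 and Ero1b of this list were themselves past 4-fold higher in Gcg-only than in Ppy-only cells, so they do not mark beta cells alone here. Mafa and Glp1r, which mark mature beta cells, were listed at 0 in every dual cell. Of 5 delta cell markers, dual cells had 0 to 3 at 1 RPKM or more, Gcg-only cells 0 to 4 and Ppy-only cells 0 to 3. Summed delta markers reached 700 RPKM in the highest dual, 1461 in the highest Gcg-only and 373 in the highest Ppy-only cell. The highest dual cell was cell 587, with Rbp4 at 436, Hhex at 156 and Frzb at 108 RPKM. All 5 endothelial markers were at 0 in every dual cell, and so were 3 of 6 stellate markers (Col1a1, Col3a1 and Pdgfrb), 4 of 5 acinar markers and 3 of 5 ductal markers (Krt19, Sox9 and Cftr). The other ductal markers were present: Krt7 reached 1 RPKM in 6 dual cells (up to 132 RPKM) and Spp1 in 5 (up to 507 RPKM, in cell 259). Summed ductal markers reached 639 RPKM in the highest dual, 4993 in the highest Gcg-only and 13862 in the highest Ppy-only cell. Summed immune markers reached 74.5 RPKM in the highest dual cell, against 3886 in the highest Gcg-only and 992 in the highest Ppy-only cell. Summed stellate markers reached 25.8, 402 and 2011 RPKM in the highest dual, Gcg-only and Ppy-only cell, and summed acinar markers 1150 (Cela1 in cell 587), 225 and 38.6. No dual cell held 3 or more markers of any non-endocrine class, while 2 of 33 Gcg-only cells and 5 of 11 Ppy-only cells did. Whether any dual cell is a doublet was not tested.

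Dual cells had more detected genes at the median than either single-hormone group. Against Gcg-only cells the order turned once dual cells with insulin at 10% or more of the hormone sum were left out. Genes at 1 RPKM or more numbered 3009 to 6381 (median 5394) in dual cells, 2459 to 7515 (median 4576) in Gcg-only cells and 1568 to 7744 (median 3798) in Ppy-only cells. The ranges overlap, and 5 of 8 dual cells were above the Gcg-only median and 7 of 8 above the Ppy-only median. With each cell thinned to 250000 recovered reads the medians were 5463 in dual, 4539 in Gcg-only (32 of 33 cells deep enough) and 3758 in Ppy-only cells. The 4 dual cells with insulin at 10% or more had 5346 to 6162 genes (median 5591.5), and the 4 with less insulin had 3009, 4044, 4126 and 6381 (median 4085), which is 491 below the Gcg-only median and 287 above the Ppy-only median. In the full-precision columns the medians were 6162, 4882 and 4981 genes in dual, Gcg-only and Ppy-only cells, and in the rounded columns 4126, 3890.5 and 3663. The part of the insulin RNA and of the column set in these differences was not tested.

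**Figure D2:**
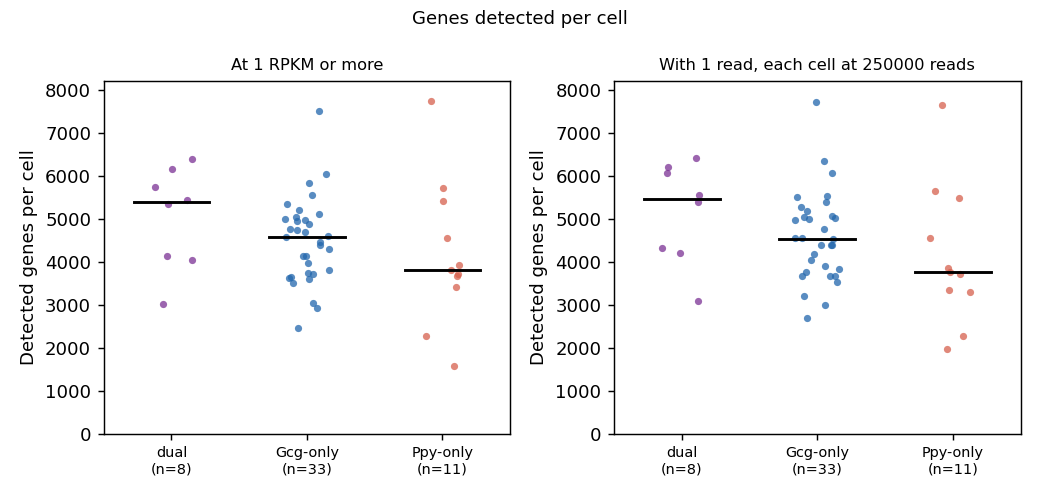
Number of genes per cell at 1 RPKM or more (left) and with at least 1 read after thinning to 250000 reads (right) in dual, Gcg-only and Ppy-only cells; each point is a cell and each bar the median. The medians on the left are 5394, 4576 and 3798 genes, and the 3 ranges overlap.

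Genes known from alpha cells were at levels in dual cells close to those of Gcg-only cells and above those of Ppy-only cells. Of the 13 alpha cell markers, 12 had a mean of at least 1 RPKM over the 52 cells, and ratios are log2 of (mean + 1) over (mean + 1). Against Gcg-only cells the median log2 ratio was -0.16, with 0 members past 4-fold higher and 1 past 4-fold lower (over 11301 genes: median -0.13, 6.43% higher and 10.5% lower). Against Ppy-only cells it was 2.12, with 6 members past 4-fold higher and 1 lower (over all genes: median 0.03, 11.7% higher and 13.2% lower), and the list median was 1.29 without cell 604. Both comparisons share the dual cells. With only the 4 dual cells of low insulin, the list medians were -0.33 and 1.795, where the median of all genes was -0.70 and -0.34.

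Irx2 (chr13:72624430-72634196), an Iroquois homeodomain factor of alpha cells, reached 1 RPKM in 5 of 8 dual cells, 19 of 33 Gcg-only cells and 0 of 11 Ppy-only cells; 0 of 11 allows a share of up to 27.3% of such cells at 1 RPKM (3 counts of the total, counting error only), and says nothing of cells with RNA below that level. Its level ran from 0 to 93 RPKM (median 4.48) in dual cells, from 0 to 92.9 (median 3.81) in Gcg-only cells and from 0 to 0.426 in Ppy-only cells. In the low-insulin dual cells it was detected in 1 of 4 cells, cell 259, the dual cell with the most reads. Irx1 reached 1 RPKM in 3 dual and 16 Gcg-only cells and was listed at 0 in all Ppy-only cells.

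Slc7a2 (chr8:40862341-40922070), a transporter of cationic amino acids, was detected in every dual cell. It was at 31 to 107 RPKM (median 66) in all 8 of them, at 3.02 to 218 (median 71.9) in Gcg-only cells and at 0 to 43.5 (median 1.67) in Ppy-only cells. Of the dual cells, 6 were above the highest Ppy-only cell. The log2 ratio was -0.28 to Gcg-only cells and 2.54 to Ppy-only cells, and it stayed between 2.39 and 2.64 to Ppy-only cells with each dual cell left out in turn. Ttr, the thyroid hormone carrier transthyretin, which islets make at high levels, was at 1048 to 27333 RPKM (median 4166) in dual cells, 273 to 52716 (median 11676) in Gcg-only cells and 0 to 9585 (median 361) in Ppy-only cells. The highest dual value, in cell 578, takes Ttr past 4-fold over Ppy-only cells, as the log2 ratio was 2.53 with it and 1.81 without.

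Other alpha cell markers past 4-fold over Ppy-only cells were uneven between dual cells. Slc38a5, a glutamine transporter, was at 1054 RPKM in cell 604 and at 6.81 or less in the other 7, so its log2 ratio of 6.67 over Ppy-only cells was 0.62 without that cell. Dpp10, a subunit of potassium channels, was at 0 to 153 RPKM (median 3.97) in dual cells, 0 to 99.7 (median 0.263) in Gcg-only cells and 0 to 5.645 (median 0) in Ppy-only cells. Wnk3, a kinase that regulates ion transport, had medians of 15.9, 12.3 and 0 RPKM. Gria3, a glutamate receptor subunit, was the member past 4-fold lower in both comparisons, with means of 8.15 RPKM in dual, 38.5 in Gcg-only and 36.1 in Ppy-only cells; without cell 47 its log2 ratios were -1.94 and -1.85, no longer past 4-fold. Gc, the vitamin D binding protein, had medians of 150, 93.5 and 19.3 RPKM. Pou3f4 reached 1 RPKM in 1 dual, 4 Gcg-only and 2 Ppy-only cells, and Sstr2, the receptor for somatostatin on alpha cells, was listed at 0 in every dual cell and was below the level needed for a ratio.

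The PP cell list, mostly taken from human islets, set the 3 groups apart less, and Pyy was the member with RNA in every dual cell at the highest level. Of its 18 members 12 had a ratio; Fxyd2, Aqp3, Sertm1, Spock1, Thsd7a and Abcc9 were under the level. Against Gcg-only cells the median log2 ratio was 0.30, with 2 members past 4-fold higher (Fev and Entpd2) and 1 lower (Id4). Against Ppy-only cells it was 0.45, with 3 higher (Etv1, Fev and Entpd2) and 1 lower (Slitrk6). The shares of all genes are as given for the alpha list. The median against Ppy-only cells was 0.00 with the 4 low-insulin dual cells.

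Pyy was at 6115 to 29863 RPKM (median 20011) in dual cells, 11.6 to 64310 (median 5807) in Gcg-only cells and 3226 to 143619 (median 65914) in Ppy-only cells. Its log2 ratio was 0.85 to Gcg-only and -1.88 to Ppy-only cells, and the ranges of the 3 groups overlap. Etv1 (chr12:38780082-38870483), an ETS transcription factor, was at 24.4 to 215 RPKM (median 47.8) in all 8 dual cells, at 0.114 to 437 (median 24.1) in Gcg-only cells and at 0 to 38.9 (median 5.1) in Ppy-only cells. By the median, Etv1 was lowest where Ppy was the only hormone. Fev, a factor of serotonergic neurons also found in islet cells, was at 320 RPKM in cell 578, 31.6 in cell 331 and 23.4 in cell 259, and at 0 in the other 5 dual cells, so its log2 ratio of 3.36 over Gcg-only cells was 0.93 without cell 578. Entpd2, an enzyme that splits extracellular nucleotides, was at 165 RPKM in cell 606 and at 0 in the other 7. Meis2, a homeodomain factor, had medians of 9.71, 8.39 and 5.86 RPKM, and Id2, an inhibitor of basic helix-loop-helix factors, 164, 143 and 371 RPKM in dual, Gcg-only and Ppy-only cells.

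**Figure D3:**
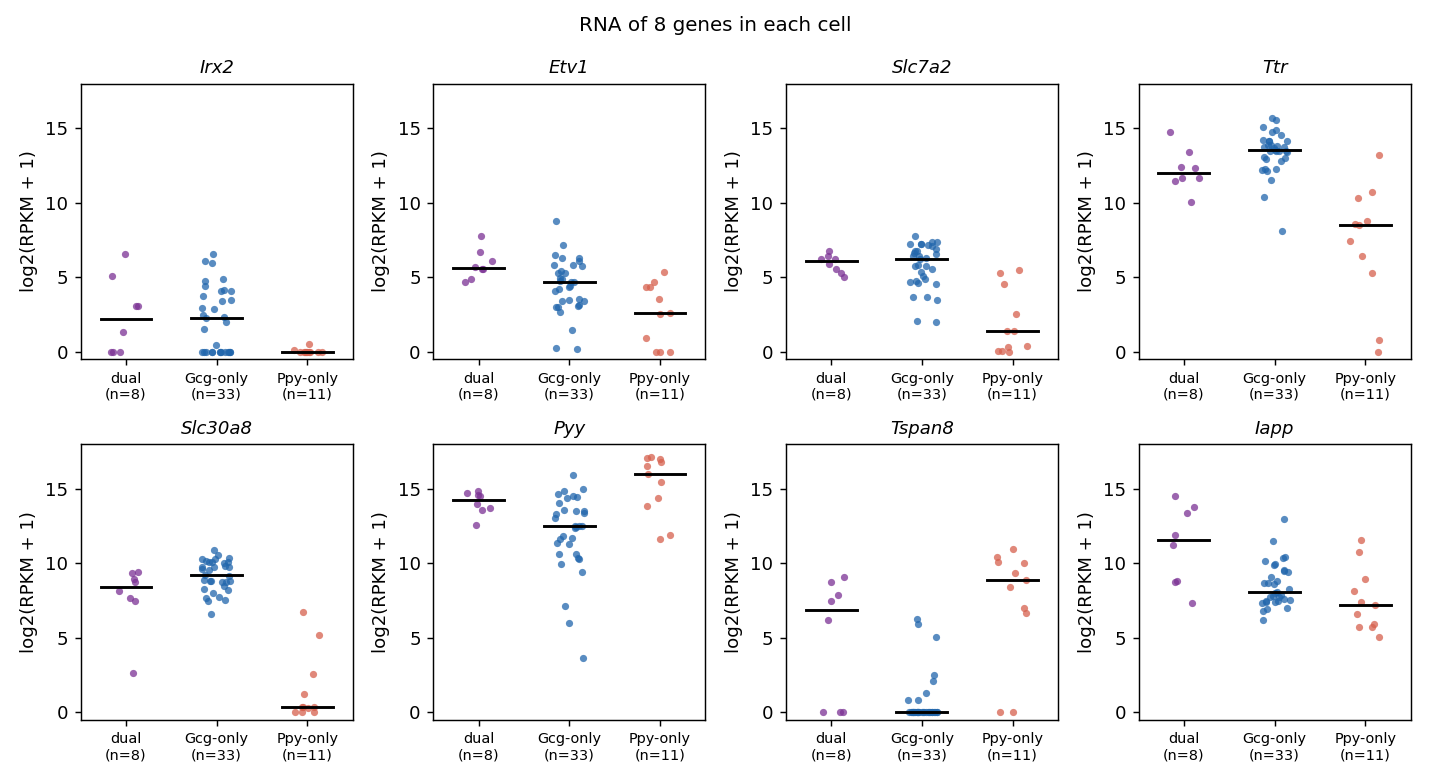
RNA of Irx2, Etv1, Slc7a2, Ttr, Slc30a8, Pyy, Tspan8 and Iapp as log2(RPKM + 1) in dual, Gcg-only and Ppy-only cells; each point is a cell and each bar the median. Slc7a2 and Slc30a8 medians of dual cells (66 and 351 RPKM) lie near those of Gcg-only cells (71.9 and 601), while Tspan8 (125 RPKM) lies between those of Gcg-only (0) and Ppy-only cells (480).

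To compare the dual cells with genes chosen without them, the single-hormone groups were set against each other. Genes had to have a mean of 20 RPKM and 1 RPKM in 50% of the cells of the higher group, and Gcg and Ppy were left out. Of 2033 such genes, 106 were past 4-fold higher in Gcg-only than in Ppy-only cells (5.21%), called alpha-reference genes here, and 103 were past 4-fold lower (5.07%), called PP-reference genes. A further 974 were within 2-fold of each other, a set added after the data had been seen. These genes had to meet the mean and detection limits in both groups, so detection in single-hormone cells was part of their choice. For each single-hormone cell the genes were chosen again without that cell.

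At the median, all 3 groups held a larger share of the alpha-reference than of the PP-reference genes. By this median the dual cells held the largest share of both, with each single-hormone cell scored on its own choice of genes. Alpha-reference genes at 1 RPKM made up 45.3% to 87.7% (median 72.2%) in dual cells, 39.7% to 85.1% (median 66.1%) in Gcg-only cells and 22.3% to 76.5% (median 50.8%) in Ppy-only cells. PP-reference genes made up 25.2% to 76.7% (median 56.8%) in dual cells, 22.5% to 82% (median 44.3%) in Gcg-only cells and 13% to 84% (median 42.4%) in Ppy-only cells. Ppy-only cells, each scored on PP-reference genes chosen without it, thus had a median no higher than that of Gcg-only cells. Those genes numbered 119 to 169 for Ppy-only cells, 99 to 111 for Gcg-only cells and 103 for dual cells. The shares are therefore not on 1 set, and whether the 103 genes carry over to further Ppy-only cells was not tested. The set within 2-fold was detected at medians of 90.1%, 85.5% and 79.8%, in the same order as the number of detected genes. After thinning, the medians were 71.7%, 66.7% and 51.2% for alpha-reference genes and 55.8%, 46.4% and 41.3% for PP-reference genes. In the 4 low-insulin dual cells the medians were 60.8% of alpha-reference and 42.2% of PP-reference genes, both below the Gcg-only medians. By mean level (log2), all dual cells together lay nearer to Gcg-only cells in 82 of 106 alpha-reference genes. They lay nearer to Ppy-only cells in 34 of 103 PP-reference genes. With the low-insulin dual cells alone these counts were 69 and 22. Their level was then at or below that of the other group in 20 and 59 genes. The same group means had chosen the genes. Of the 11 Ppy-only cells behind both sets, 5 held 3 or more markers of another class.

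**Figure D4:**
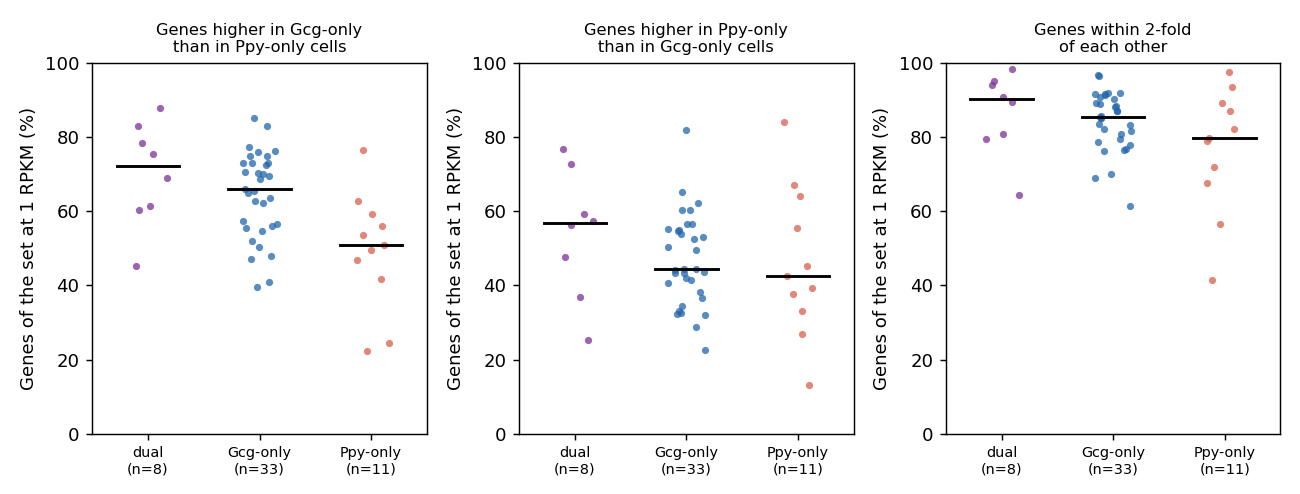
Percent of genes at 1 RPKM or more in each dual, Gcg-only and Ppy-only cell, for genes past 4-fold higher in Gcg-only than in Ppy-only cells (left), the reverse (middle) and genes within 2-fold (right); each point is a cell and each bar the median. In the middle panel the Gcg-only and Ppy-only medians are 44.3% and 42.4%, against 56.8% in dual cells. For each single-hormone cell the genes were chosen again without that cell, so the sets differ in size between cells.

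Alpha-reference genes differed in how many dual cells held them, among the 15 with the largest ratio between the single-hormone groups, a choice added after values had been seen. At 1 RPKM, 6 of the 15 were in 7 or 8 dual cells, 5 in 4 or 5, and 4 (Fbp1, Slc38a5, Trnau1ap and Ifi35) in 2. Slc30a8 (chr15:52295553-52335798), the zinc transporter of insulin and glucagon granules, was at 5.33 to 673 RPKM (median 351) in dual cells, 98.7 to 1930 (median 601) in Gcg-only cells and 0 to 107 (median 0.274) in Ppy-only cells. Of the dual cells, 7 were above the highest Ppy-only cell and cell 331, at 5.33 RPKM, was below every Gcg-only cell. Higd1a, a mitochondrial protein induced by hypoxia, was at 18.1 to 164 RPKM (median 52.8) in dual cells, 0 to 230 (median 48.9) in Gcg-only cells and 0 to 38.5 (median 0) in Ppy-only cells. Rnase4, a secreted ribonuclease whose gene overlaps Ang, had medians of 287, 217 and 2.56 RPKM. Fbp1 (chr13:62864753-62888298), an enzyme of gluconeogenesis and the alpha-reference gene with the largest ratio, differed from these: it was at 170 RPKM in cell 259, 147 in cell 47 and 0 in the other 6 dual cells, against a median of 95.4 in Gcg-only cells and at most 0.353 in Ppy-only cells.

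Tspan8 (chr10:115816817-115849893), a tetraspanin of the cell surface, was the PP-reference gene with the largest ratio. It was at 541 RPKM in cell 500, 423 in cell 331, 240 in cell 587, 178 in cell 604 and 72.6 in cell 259, and at 0 in cells 47, 578 and 606. Gcg-only cells had 0 to 77 RPKM (median 0, detected in 6 of 33) and Ppy-only cells 0 to 2050 (median 480, detected in 9 of 11). In dual cells the log2 ratio was 4.82 over Gcg-only cells, between 4.34 and 5.01 with each dual cell left out, and -1.86 to Ppy-only cells. Hadh, an enzyme of fatty acid oxidation, was at 159 RPKM in cell 47 and at 19.1 or less in the other 7 dual cells, with medians of 3, 0.649 and 72.4 RPKM in the 3 groups.

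Transcription factors that islet endocrine cells share were near the Gcg-only level in dual cells. Of 12 factors 11 had a ratio, with a median log2 ratio of 0.44 to Gcg-only cells (0 past 4-fold in either direction) and 0.99 to Ppy-only cells (4 higher, 0 lower), beside 6.43% higher and 10.5% lower, and 11.7% and 13.2%, over all genes. Without cell 500 these medians were -0.01 and 0.52, and the median to Ppy-only cells was 1.95 without the single-hormone cells holding markers of another class. Isl1 (chr13:116298270-116309688), a LIM homeodomain factor, was at 4.82 to 602 RPKM (median 116) in dual cells, 0 to 494 (median 89.3) in Gcg-only cells and 0 to 230 (median 6.13) in Ppy-only cells. Its log2 ratio over Ppy-only cells was 2.35, and 1.75 without cell 578. The others past 4-fold over Ppy-only cells were Myt1 (3.57), Rfx6 (2.51, and 0.45 without cell 500) and Rfx3 (2.05, and 1.58 without cell 578). Pax6, which activates the glucagon gene, had medians of 27.9, 10.4 and 1.96 RPKM in dual, Gcg-only and Ppy-only cells, Neurod1 2.1, 10.1 and 2.72, and Nkx2-2 10.7, 5.05 and 3.75. Foxa1 was listed at 0 in all 3 groups.

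Genes of prohormone processing and of the granule differed little at the median. Of 16 genes 15 had a ratio, with medians of -0.24 to Gcg-only cells (0 past 4-fold) and 0.11 to Ppy-only cells (2 higher, 0 lower), counts near or below the shares over all genes (6.43% higher and 10.5% lower, and 11.7% and 13.2%). Pcsk2, the convertase that releases glucagon from proglucagon, was at 318 to 760 RPKM (median 499) in dual cells, 38.9 to 1718 (median 611) in Gcg-only cells and 20.6 to 1640 (median 457) in Ppy-only cells. Resp18, a granule protein, had medians of 5801, 6195 and 3352 RPKM, and Scg5, the chaperone of Pcsk2, 1174, 1380 and 1725. Chga, a granin, had medians of 468, 833 and 177 RPKM. Past 4-fold over Ppy-only cells were Gnas (267, 278 and 52.9 RPKM at the mean), which encodes the stimulatory G protein subunit, and Pcsk1n (93, 69.3 and 15.6 RPKM), an inhibitor of Pcsk1, whose log2 ratio was 1.94 without cell 331 and so no longer past 4-fold.

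Beta cell genes were uneven between dual cells and followed the insulin share only in part. Of 14 markers 7 had a ratio, with medians of 0.09 to Gcg-only cells (3 past 4-fold higher, 0 lower) and 3.46 to Ppy-only cells (6 higher, 0 lower), beside 6.43% and 11.7% higher over all genes. Slc30a8 and Ero1b of this list were also alpha-reference genes, and Slc30a8 had log2 ratios of -0.98 to Gcg-only and 4.64 to Ppy-only cells. Iapp (chr6:142298425-142303820), the amyloid peptide secreted with insulin, was at 23940, 13916, 10782 and 2378 RPKM in cells 47, 604, 587 and 331, which hold insulin at 10% or more, and at 3869, 445, 433 and 164 in cells 606, 578, 500 and 259. Gcg-only cells ran from 71.8 to 8270 RPKM (median 274) and Ppy-only cells from 31.7 to 2997 (median 144). Ucn3, a peptide of mature beta cells, was at 91.7, 43.3 and 33 RPKM in cells 47, 604 and 331 and at 2.74 or less in the other 5. Sytl4, which tethers granules, was at 62.7 RPKM in cell 604, 20.3 in cell 47 and 3.78 in cell 331, and under 1 in the other 5, and was at most 0.74 in Gcg-only cells; without cell 604 its log2 ratio over Gcg-only cells was 1.99, no longer past 4-fold. G6pc2, a glucose-6-phosphatase of islets, was at 141, 94.6, 26.1 and 3.94 RPKM in cells 47, 604, 331 and 587, and at 97.3 in cell 606 and 3.16 or less in cells 500, 259 and 578. Pdx1 and Nkx6-1, transcription factors of beta cells, reached 1 RPKM in 1 and 2 dual cells.

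Across all genes, many of those past 4-fold higher rested on 1 dual cell. With the level filter applied to the higher group, 145 of 2378 genes were past 4-fold higher in dual than in Gcg-only cells (6.1%) and 70 lower (2.94%), together 215 (9.04%). Against Ppy-only cells 282 of 2360 were higher (11.9%) and 141 lower (5.97%), together 423 (17.9%). Of these, 18 of 145, 53 of 70, 65 of 282 and 112 of 141 stayed past 4-fold with each dual cell left out in turn. In 102 of the 145 and 165 of the 282 genes higher in dual cells, 1 cell held more than 50% of the summed level, most often cell 578 (40 and 51 genes), the dual cell with the fewest detected genes and the largest mitochondrial share. The ranges of the dual and the single-hormone cells overlapped in every gene past 4-fold. By the mean of log2(RPKM + 1), 155 genes were higher and 13 lower against Gcg-only cells, and 348 and 62 against Ppy-only cells, and by group medians 257 and 22, and 351 and 91.

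Past 4-fold against both single-hormone groups were 73 higher and 23 lower of 2110 genes that passed the filter in both. The 10 higher by the largest smaller ratio were Plagl1, Kbtbd4, Cobl, Pms2, Nupr1, Mlh3, Pkn2, Ptdss2, Wdr11 and Nelfe. Nupr1, a stress-induced nuclear protein, was at 2905 RPKM in cell 47 and 1593 in cell 604, at 42.2 or less in the other 6 dual cells, and had medians of 20.5, 0 and 0.391 RPKM in dual, Gcg-only and Ppy-only cells. With the low-insulin dual cells alone its log2 ratio was -0.40 to Gcg-only and -1.76 to Ppy-only cells, against 5.28 and 3.91 with all 8. Plagl1, an imprinted zinc finger factor whose gene overlaps Hymai, was at 274 RPKM in cell 500 and 61.9 in cell 259, at 4.54 or less in the other 6 dual cells, and reached 1 RPKM in 1 Gcg-only and 1 Ppy-only cell. Kbtbd4, an adaptor of a ubiquitin ligase, was at 463 RPKM in cell 578, 368 in cell 606, 63.6 in cell 587 and 25.9 in cell 604, and under 1 in cells 47, 259, 331 and 500, which include all 3 dual cells of the full-precision columns. Within those columns its log2 ratio was -0.72 to Gcg-only and -1.07 to Ppy-only cells.

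Pms2 and Mlh3, which act in DNA mismatch repair, Ptdss2, which makes phosphatidylserine, Wdr11, and Cobl, an actin nucleator, were each highest in cell 578, at 101 RPKM for Wdr11 and 216 to 323 for the others. Without cell 578 the log2 ratios to Gcg-only cells were 1.55 for Cobl, 1.15 for Pms2 and 0.65 for Mlh3, and those to Ppy-only cells 0.80 for Mlh3 and 1.92 for Ptdss2, none of them past 4-fold. Pkn2, a protein kinase, was at 271 RPKM in cell 500, 119 in cell 578 and 114 in cell 259. Nelfe, a subunit of a factor that pauses RNA polymerase, was at 318 RPKM in cell 587 and 302 in cell 606. The same cell 578 also led Rsph9, a radial spoke protein (268 RPKM), and Nudt10 (876 RPKM, with a log2 ratio of 1.013 without this cell), which were named against Gcg-only cells, and cell 500 led Dcaf11 (289 RPKM). Tspan8 was the remaining gene named as higher than in Gcg-only cells.

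The 10 genes lower than in both groups were Erp29, Mrpl55, Pcna, Ist1, Alg11, Ndufab1, Ppp1r2, Mtfr1l, Slc39a7 and Commd9. Erp29, a chaperone of the endoplasmic reticulum, was at 15.4 and 13.5 RPKM in cells 47 and 259 and under 1 in the other 6 dual cells, against medians of 1.42 and 1.07 and highs of 1231 and 560.5 RPKM in Gcg-only and Ppy-only cells. Pcna, a clamp for DNA polymerases, was at 6.53 and 4.55 RPKM in cells 259 and 604 and at 0 in the other 6, and reached 1 RPKM in 17 of 33 Gcg-only and 6 of 11 Ppy-only cells. Group medians put Alg11 at 1.554 RPKM in dual and 1.009 in Gcg-only cells, the reverse of its means. Against Gcg-only cells the 10 lowest were Smim20, Mier3, Mtfr1l, Bcap29, Prdx3, Erp29, Mrpl55, Commd9, Pcna and Galnt2, with log2 ratios of -3.29 to -4.95, and Prdx3, a mitochondrial peroxiredoxin, had a higher median in dual (3.22 RPKM) than in Gcg-only cells (1.54).

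Against Ppy-only cells the 10 highest were Spc25, Kbtbd4, Upb1, Nt5dc2, Maob, Rfx7, Slc37a4, Gm9790, Cobl and Zbtb11. Maob (chrX:16709281-16817366), which breaks down monoamines, was at 135, 106, 76 and 71.2 RPKM in cells 606, 259, 604 and 47, at 1.68 to 2.52 in cells 331, 587 and 500, and at 0 in cell 578, against medians of 31.3 in Gcg-only and 0 in Ppy-only cells. It was also an alpha-reference gene, as were Spc25, a kinetochore protein with medians of 67.7, 13.7 and 0 RPKM, and Gm9790, a predicted gene with medians of 159, 62.9 and 0. Upb1, an enzyme of pyrimidine breakdown, had medians of 35.5, 0.821 and 0 RPKM. Nt5dc2 was listed at 0 in every Ppy-only cell. The 10 lowest were Tes, Calu, Hspb8, Capza1, Ntan1, Nans, Mavs, Snx14, Clic1 and Pcna, of which Tes, Hspb8 and Mavs were listed at 0 in every dual cell and had medians of 3.14, 3.8 and 1.8 RPKM in Ppy-only cells. A count of 0 of 8 cells allows a share of up to 37.5% of such cells with a read of the gene (counting error only).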

How the data were processed

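RNA of single mouse islet cells was measured by RNA-seq, 1 library per cell. The authors deposited RPKM values per gene and cell, with gene IDs of which 39725 of 44448 matched a symbol. CASAVA 1.8.2, FastQC and the build GRCm38 (mm10) are named, with no role, in the submitters' processing notes; for the aligner, the counter and the annotation, the sources used here state nothing. No deposited column lacked a sample.

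RPKM ratios between cells gave the value of 1 read for 23139 of the 23143 genes with RNA in at least 5 full-precision columns. The table held 44448 genes, and those without such a value entered as 0 reads. Genes with the value held a median of 99.96% of RPKM in the 52 cells (lowest 99.63%). Of their values under 100 recovered reads, 99.98% (full-precision columns) and 99.94% (rounded columns) were whole within 0.05. These reads served for depth and for thinning to 250000 reads, which 1 of the 52 cells did not reach. As all cells are 1 sample, no model was fitted and no p-value computed. Ratios are log2 of mean RPKM plus a pseudocount of 1; past 4-fold means a log2 ratio of at least 2 in size. Genes across the table had to have a mean of 20 RPKM and 1 RPKM in 50% of the cells of the higher group, and list members a mean of 1 RPKM over the 52 cells. No doublet caller was run. RPKM is relative to all RNA of a cell, so a high hormone level lowers the values of other genes.

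The rule for naming genes took, in each comparison and in both together, the 10 largest ratios at either end, alpha and PP members with a mean of 5 RPKM in any group, and 4 members of each other list; others are named as chosen after their values were seen. The members and lists were chosen with earlier results of these data known. Alternatives changed the pseudocount, filter, summary, scaling, thresholds, columns and cells, and left out each dual cell in turn. Read recovery was tested on simulated counts. The ratio and level filter were tested on real Gcg-only cells in which some genes had been changed by a known factor. Python 3.11.15, numpy 2.4.6, pandas 2.3.3, scipy 1.17.1 and matplotlib 3.10.9 were used. Some genes of the lists are not reported here.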

Additional observations from a re-analysis of the deposited data

How the results depend on the processing

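No paired analysis was possible because all cells are 1 sample, the labels give no shared replicate numbers and no result comes from a test. The number of genes past 4-fold, 215 against Gcg-only and 423 against Ppy-only cells, was 46 and 134 with a pseudocount of 10, 1986 and 3014 with no filter, 445 and 687 in rounded columns alone, 578 and 933 in columns of full precision, and 506 and 691 with the 4 dual cells of insulin under 10%. It was 323 against Gcg-only cells with the smaller hormone at 25% or more (6 dual cells). Against Ppy-only cells it was 672 with single-hormone cells at 99% (5 Ppy-only cells) and 652 without the cells holding markers of another class (6 Ppy-only cells). Leaving out each dual cell gave 204 to 230 and 392 to 444. The difference in median detected genes, 818 and 1596, was -491 and 287 with the dual cells of insulin under 10%. The PP list median against Ppy-only cells, 0.45, was 0.071 with a pseudocount of 10, 0.33 with RPKM rescaled outside the hormones, 0.28 without the cells holding other markers, 0.00 by group medians and with insulin under 10%, and 0.00 to 0.54 with each dual cell left out (0.00 without cell 606, 0.06 without 259, 0.10 without 587 and 0.29 without 578). The granule list median against Ppy-only cells, 0.11, was 0.64 by group medians. The causes were not tested.

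Log2 ratios of named genes changed sign as follows. By group medians, Prdx3 was at 0.73 and Alg11 at 0.35 against Gcg-only cells, and Stx1a at 0.24 against Ppy-only cells. In the full-precision columns, ratios to Gcg-only cells were -0.72 for Kbtbd4, -0.62 for Cobl, -1.77 for Nudt10, -0.070 for Entpd2, -2.56 for Hhex, -0.28 for Cela1, 1.95 for Cd74, -0.36 for Col1a2, -0.40 for Mcm2 and -1.003 for Cd24a. Ratios to Ppy-only cells there were -1.07 for Kbtbd4, -0.17 for Slc38a5, -1.78 for Hhex, -2.92 for Cela1, 0.017 for Cd74, 0.058 for Hspa1a, -0.44 for Mcm2 and -1.37 for Cd24a. Among rounded columns, Gcgr was at -0.053 against Gcg-only cells, and against Ppy-only cells Ntan1 was at 0.053, Nans 0.14, Col1a2 2.76, Gcgr -0.11, Stx1a 0.51, Cox6a2 0.37 and Vim 0.73. With insulin under 10%, ratios to Gcg-only cells were -0.40 for Nupr1, -0.093 for Ucn3, -0.36 for Frzb, -1.84 for Hhex, -2.99 for Cela1, -0.079 for Gcgr, -2.75 for Ddit3 and -0.60 for Cd24a. Ratios to Ppy-only cells were then -1.76 for Nupr1, -0.27 for Slc38a5, -1.22 for Hhex, -1.66 for Frzb, -2.27 for Cela1, -0.17 for Gcgr, -0.82 for Avpr1b and -0.95 for Cd24a. Without cell 587, Hhex was at -1.86 and -1.25, Cela1 at -2.99 and -2.27 and Cd24a at -0.62 and -0.98 against Gcg-only and Ppy-only cells. Without cell 606, Entpd2 was at -0.037 against Gcg-only cells and Mcm2 at -0.23 and -0.26. The highest values of these with a dual cell left out, against Gcg-only and Ppy-only cells, were 2.64 and 3.25 for Hhex, 4.38 and 5.10 for Cela1, 4.48 and 4.13 for Cd24a and 3.33 and 3.30 for Mcm2, and 4.58 against Gcg-only cells for Entpd2. With 8 dual and 11 Ppy-only cells, 1 cell can set a mean, and a count of 0 of 8 cells allows a share of up to 37.5%.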

Other observations

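Beyond the islet identity lists, transport and sensing genes of the dual cells can be described beside the medians of all genes, -0.13 against Gcg-only and 0.03 against Ppy-only cells. Over all genes, 6.43% were past 4-fold higher and 10.5% lower against Gcg-only cells, and 11.7% and 13.2% against Ppy-only cells, and with 3 to 16 members a list each count below is to be read against these shares. Amino acid transporters had a median log2 ratio of 0.38 to Gcg-only cells (1 of 8 past 4-fold higher, 0 lower) and 1.11 to Ppy-only cells (3 higher, 0 lower). Slc7a5, a transporter of large neutral amino acids and past 4-fold in both, had log2 ratios of 1.25 and 0.68 without cell 578. Slc38a4, a transporter of neutral amino acids, was at 60.1 to 193 RPKM in 6 dual cells and at 0 in cells 500 and 578, against medians of 24.7 in Gcg-only and 0.0989 in Ppy-only cells. Slc7a8, which carries large neutral amino acids, was detected in 8 of 8 dual, 28 of 33 Gcg-only and 3 of 11 Ppy-only cells, with medians of 25.9, 20.4 and 0.249 RPKM. Receptors had medians of -0.12 (2 of 10 higher, 1 lower) and 1.49 (4 higher, 0 lower). Without cell 578 Ffar4, a receptor for fatty acids, was at 1.28 and 0.71, and without cell 47 Avpr1b, a vasopressin receptor, was at 0.87 against Ppy-only cells, none of them past 4-fold. Gcgr, the glucagon receptor, was at 53 RPKM in cell 331 and 41.5 in cell 47, both with insulin RNA at 10% or more, and at 0 in the other 6 dual cells.

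Glucose and ion channel genes had medians of -0.01 (0 of 16 higher, 1 lower) and 0.69 (2 higher, 1 lower), and the lower gene was Kcnk16, a potassium channel detected in 1 of 8 dual, 14 of 33 Gcg-only and 4 of 11 Ppy-only cells. Exocytosis genes had medians of -0.18 (0 of 10 past 4-fold) and 0.25 (1 higher, 1 lower). Chaperones of the endoplasmic reticulum had medians of 0.32 (1 of 16 higher, 0 lower) and -0.10 (0 higher, 1 lower). Ddit3, a stress-induced transcription factor, was at 397 RPKM in cell 47 and 144 in cell 604, the same cells that led Nupr1, and at 13.9 or less in the other 6, and its log2 ratio to Gcg-only cells was 0.83 without cell 47. Peroxide removal genes had medians of -0.02 (0 of 11 higher, 1 lower) and -0.23 (0 higher, 2 lower), and energy genes 0.34 (0 of 10 past 4-fold) and 0.34 (2 higher, 2 lower).

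Immediate early and heat shock genes, which cell isolation can induce, had medians of -0.82 (0 of 10 higher, 1 lower) and -1.04 (0 higher, 3 lower). Fos had medians of 327, 209 and 288 RPKM in dual, Gcg-only and Ppy-only cells, and Jun 25.6, 50.4 and 43.2. Of 9 proliferation genes 3 had a ratio and 5 were at 0 in every dual cell, and of 8 embryonic and progenitor genes 3 had a ratio and 5 were at 0 in every dual cell. Cd24a was at 241 RPKM and Hhex, a delta cell factor, at 156 RPKM in cell 587, the dual cell with Sst at 11.4% of its hormone RNA, and both were under 1 RPKM in the other 7 dual cells.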
